A study of Mus musculus with 2 samples.

Results

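Cytosolic ribosomal proteins are the protein components of the large (Rpl) and small (Rps) subunits of the ribosome that translates the messenger RNAs of the nucleus. Their genes were taken by name: every gene whose single symbol on the array platform starts with Rpl or Rps followed by a digit, with Rplp0, Rplp1, Rplp2 and Rpsa, and without the Rps6k kinases, Rps19bp genes and symbols ending in -ps. The rule found 49 genes among 18193 named on the array, 26 of the large and 23 of the small subunit. The RefSeq table lists 88 protein-coding genes that fit the rule, and 48 of them were among the 49. The remaining member, Rps4l, is listed there as a transcribed pseudogene and was kept because its symbol fits the rule. Genes such as Rpl3, Rpl5 and Rplp1 share all their probe sets with other symbols and were not analysed singly here.

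Total RNA came from splenic antigen-presenting cells (APCs) of 10-week-old female wild-type C57BL/6 mice, which in both conditions had shared an overnight culture with CD4+ T cells bearing the P25 receptor. In one condition P25 was added, the peptide that this receptor recognises, and in the other medium alone. The APCs were enriched after culture, and how this was done is not given in the sources used here. Each condition was read on 1 array from a mixture of RNA from 3 experiments, so there is no spread between replicates, no p-value, and every value below is a description of these 2 arrays. Values are signal intensities of the deposited table, and a ratio is always P25 over medium. In such a mixture fewer cells of a type and less RNA per cell cannot be told apart.

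Ribosomal protein mRNAs are among the most abundant of growing cells, and the proteins are made in near-equal numbers because each ribosome holds 1 copy of most of them. Many of these mRNAs begin with a 5′ terminal oligopyrimidine (TOP) tract, a C at the first base followed by a run of C and T, through which mTOR signalling and the repressor LARP1 set their translation. Control of these genes is therefore known to act on translation as well as on mRNA level, and an array measures the mRNA level alone. Several members also have paralogs, copies of the gene whose proteins can take the place of the original in the ribosome or act outside it.

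The TOP tract is the mark by which these mRNAs are known, so 10 starts are shown to let it be seen in members of high and low signal, with coordinates and sequences from RefSeq (GRCm38.p6). Each is 80 bases long, 60 before the annotated start and 20 from it, and capitals mark the longest run of a C followed by at least 4 C or T that begins within 10 bases of the start. The first 7 are genes of the ribosome itself with such a run across the start base, and the last 3 are paralogs. Rps27l is shown at the first of its 2 annotated starts, and Rpl7l1 has no such run.
Rpl38 (chr11:114668520-114668599, + strand): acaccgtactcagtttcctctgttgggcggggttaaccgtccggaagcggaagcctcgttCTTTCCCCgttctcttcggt
Rplp2 (chr7:141447591-141447670, + strand): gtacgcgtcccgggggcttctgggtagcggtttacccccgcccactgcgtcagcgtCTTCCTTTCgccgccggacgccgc
Rps18 (chr17:33955646-33955725, - strand): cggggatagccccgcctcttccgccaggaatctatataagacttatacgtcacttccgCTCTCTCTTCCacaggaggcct
Rpl35 (chr2:39005112-39005191, - strand): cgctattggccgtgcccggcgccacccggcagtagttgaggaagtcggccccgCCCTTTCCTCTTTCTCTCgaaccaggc
Rpl14 (chr9:120571457-120571536, + strand): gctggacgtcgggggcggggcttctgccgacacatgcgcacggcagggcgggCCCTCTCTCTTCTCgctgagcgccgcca
Rps27 (chr3:90213629-90213708, - strand): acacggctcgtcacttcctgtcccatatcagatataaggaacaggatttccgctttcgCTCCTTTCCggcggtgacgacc
Rps6 (chr4:86857348-86857427, - strand): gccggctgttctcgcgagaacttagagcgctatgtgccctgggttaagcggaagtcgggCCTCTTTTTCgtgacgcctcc
Rps27l (chr9:66946026-66946105, + strand): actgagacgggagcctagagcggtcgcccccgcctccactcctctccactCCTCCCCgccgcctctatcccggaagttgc
Rpl22l1 (chr3:28805448-28805527, + strand): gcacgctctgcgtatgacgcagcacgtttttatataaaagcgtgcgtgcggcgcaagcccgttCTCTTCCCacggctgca
Rpl7l1 (chr17:46782637-46782716, - strand): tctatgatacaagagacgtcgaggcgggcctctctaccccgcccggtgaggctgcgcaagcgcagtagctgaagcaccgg

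Of 43 members with a start in the RefSeq table, 8 (18.6%) had a C at the start base itself with at least 4 pyrimidines after it, against 3.01% of all 27025 genes in the table and 2.93% of those on the array. They were Rpl14, Rpl35, Rpl38, Rplp2, Rps6, Rps10, Rps18 and Rps27, and none of the 5 paralogs with a start was among them. Allowing the run to begin anywhere from 10 bases before to 10 after the start gave 27 members (62.8%) against 34.4% of all genes and 36.4% of those on the array, 4 of the 5 paralogs included. The motif CCGGAAG, the core bound by ETS factors such as GABP, stood on either strand of the window from 250 bases before to 50 after the start in 21 members (48.8%) against 9.93% of all genes and 15.0% of those on the array. AAGATGGC, the core bound by YY1, was found in 4 members (9.30%, against 3.19% of all genes and 4.07% of those on the array). The E box CACGTG, bound by MYC, was in 4 (9.30%, against 8.09% and 10.2%), a share between both backgrounds. CCGGAAG and AAGATGGC can share the letters AAG where they meet, and a match is a description of the window. The 8 members with the run at the start base did not share a ratio: their log2 ratios went from -0.22 (Rps27) to 1.11 (Rpl14). Each call of a run rests on the annotated start, and whether that is the first base of the mRNA was not checked. Rpl4 and Rps25, for example, have such a run more than 10 bases before it and were not counted.

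On the brightest probe set of each gene, most ribosomal protein mRNAs had nearly the same signal with and without P25. A signal was called measured when at least 1 array lay above a floor of 10.3, the 40th percentile of all signals, and 47 of the 49 members were, each of them on both arrays. Rpl3l (6.60 with P25 and 2.16 with medium) and Rps16 (0.332 and 0.261) were below the floor on both. The median log2 ratio of the 47 was 0.04, against 0.02 over all 12897 measured genes, and 25 of the 47 were above 0, against a background of 51.4%. At least 1.5-fold higher with P25 were 9 members (19.1%, background 20.9%) and at least 2-fold higher 3 (6.38%, background 9.43%). None was 1.5-fold or 2-fold lower, where 18.3% and 7.22% of all measured genes were. In 14 members the brightest probe set is of the _x_at and in 2 of the _s_at kind, which can bind near-identical copies of a gene, so those values are uncertain between copies. On the brightest probe sets the share of higher members was thus near the background, while the count of lower members was 0. Probe sets of one gene served as the gauge of technical disagreement. The log2 ratios of the brightest pair differed with an SD of 0.58 over 5287 genes and of 0.23 over 20 members. Of these 20 members 18 had a brightest probe set of 6000 or more, so 0.23 is hardly a gauge for dimmer members. In 12 of the 18, further probe sets under 6000 had log2 ratios above that of the brightest by a median of 0.44. Of these 21 probe sets 20 lay above it, a shift in 1 direction and not a spread like the SDs.

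**Figure D1:**
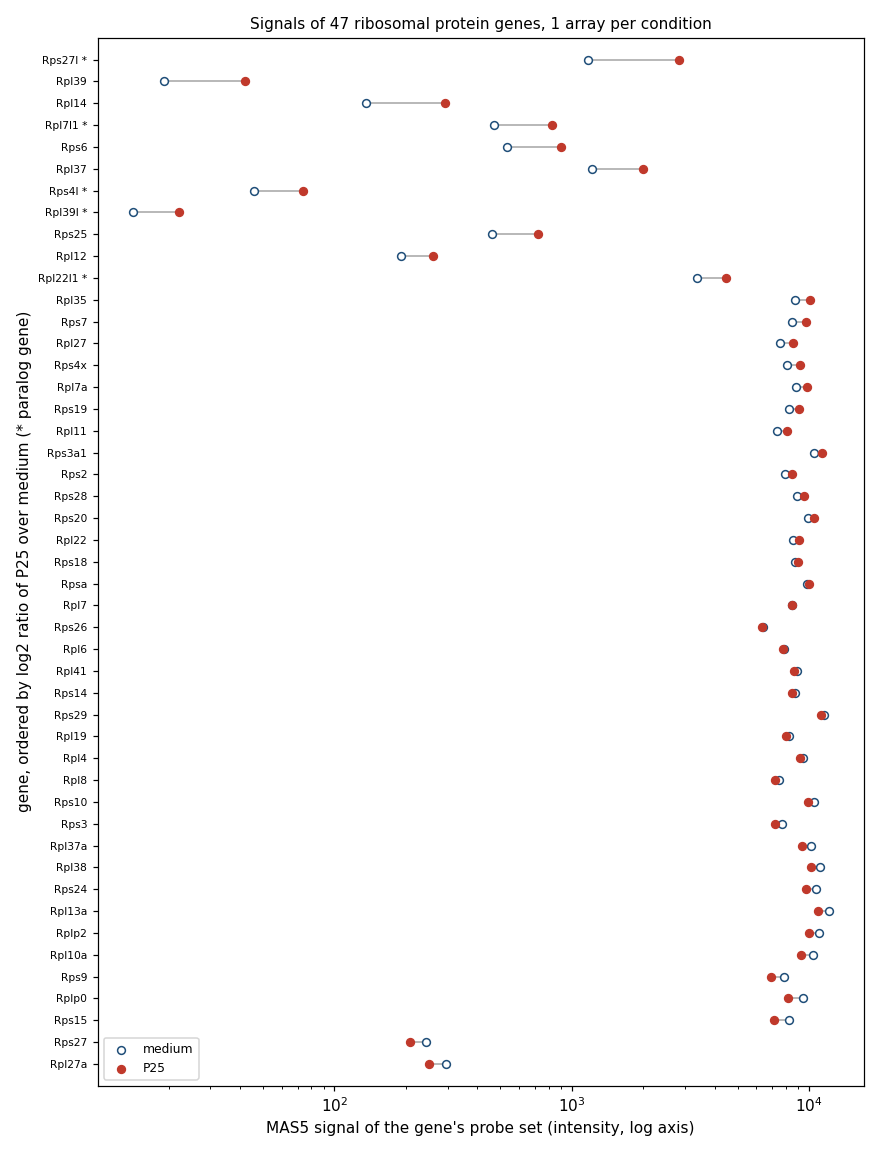
Signal of each of the 47 measured ribosomal protein genes on the P25 array (filled) and the medium array (open), on a log axis, with genes ordered by their ratio and paralogs starred. The 34 genes at the right, with mean signals of 6000 or more, have nearly touching points, while Rps27l, Rpl39 and Rpl14 at the top are more than 2-fold apart.

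The members fell into 2 parts by the signal of their probe set, a split made after the values were seen. In 34 the geometric mean of both signals was between 6375 (Rps26) and 11498 (Rpl13a). These probe sets stood at the top of the scale, since the highest signal of the whole array was 11966 with P25 and 12494 with medium, and of the 50 genes with the highest signals 33 were members. All 34 log2 ratios lay between -0.21 (Rps15) and 0.21 (Rpl35), with a median of -0.02 and an SD of 0.13 between genes. Another 28 genes reached the same range of signal, among them Actb, Cd74 and Eef1a1. Their log2 ratios went from -0.64 (the mitochondrial gene ND5) to 0.61 (Npm1), with a median of -0.08 and an SD of 0.31, 8 were above 0 (28.6%), and 1 was at least 1.5-fold higher and 1 lower (3.57% each). Over the 989 genes with signals of 1000 or more, members included, 58.2% were above 0. At 1.5-fold 26.5% of these were higher and 15.1% lower, and at 2-fold 11.4% and 4.75%. Whether signals this close to the top of the scale still follow a change in mRNA was not tested.

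The acidic stalk of the large subunit recruits the elongation factors. Its base, Rplp0, had a signal of 8186 with P25 and 9445 with medium, a log2 ratio of -0.21. Rplp2, which forms dimers on that base, had 9958 and 11057 (-0.15). With median scaling they came to -0.06 and -0.01, with spike-in scaling to -0.02 and 0.04, and with loess to -0.38 and -0.32. The third stalk gene, Rplp1, was not analysed singly. Rpl11 binds 5S ribosomal RNA together with Rpl5 and holds back MDM2 when ribosome assembly fails, and it had 8064 with P25 against 7349 (0.13).

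Rpl35 lies next to the exit of the peptide tunnel and showed the highest ratio of the 34, 10123 against 8731 (0.21). Rpl22, an RNA-binding protein needed for the development of some T cells, had 9084 against 8594 (0.08). Rpl13a, released from the ribosome in interferon-γ-treated myeloid cells to silence selected mRNAs, had 10914 against 12115 (-0.15). On these brightest probe sets the largest of the 3 differences, that of Rpl35, was 1.16-fold. Further probe sets of the 3 genes gave log2 ratios from -0.48 (Rpl22) to 0.66 (Rpl13a).

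On the small subunit the proteins near the decoding site gave ratios of both signs. Rps2 had 8505 with P25 against 7913 with medium (log2 ratio 0.10), Rps3, which also partners the NF-κB subunit p65, had 7222 against 7727 (-0.10), and Rps15 had 7144 against 8258 (-0.21). Rpsa, also known as a laminin receptor precursor, had 9999 against 9792 (0.03). Rps4x, one of the X-linked members, had 9140 against 8116 (0.17). Genes mutated in Diamond-Blackfan anaemia, a failure of red cell production, were in the same narrow band: Rps19 (0.14), Rps7 (0.20), Rps26 (-0.01), Rps29 (-0.04), Rps10 (-0.09) and Rps24 (-0.14).

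The remaining genes of this range were as close to 0. On the large subunit, Rpl27 (8556 against 7589) and Rpl7a (9823 against 8795) had log2 ratios of 0.17 and 0.16, and Rpl6, Rpl41, Rpl19, Rpl4, Rpl8, Rpl37a, Rpl38 and Rpl10a went from -0.01 (Rpl6) to -0.17 (Rpl10a, 9260 against 10415). On the small subunit, Rps3a1 (11383 against 10473), Rps28 and Rps18 went from 0.12 to 0.04, Rps14 had -0.04 and Rps9 -0.18. Over all measured members the subunits had similar medians, -0.01 for 25 of the large and 0.06 for 22 of the small, with 5 and 4 genes at least 1.5-fold higher with P25 (background 20.9%).

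The paralogs differed from the 34 genes at the top of the scale, and so did most of the 8 other members with signals under 6000, given below. Of 6 paralogs on the array 5 were measured, every one was above 0 in log2 ratio (background 51.4%), and 4 passed 1.5-fold (background 20.9%). Their median was 0.68, the value of Rps4l, which is counted here by its name though RefSeq lists it as a transcribed pseudogene. Rps4l is also among the 4. With loess the 5 paralogs were above 0 too, the lowest at 0.24 (Rpl22l1), with a median of 0.71. Loess raised the ratios of Rps4l (to 0.87) and Rpl39l (to 0.69) and lowered those of the others. Rps27l, a p53-inducible relative of Rps27, had 2837 with P25 and 1169 with medium, the highest ratio of all members at 2.43-fold (log2 ratio 1.28). Its other 2 probe sets gave 2596 against 1051 (1.30) and 1923 against 770 (1.32), so its 3 probe sets gave nearly one value. The probe set of Rps27 itself had 207 against 242 (-0.22).

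Rpl7l1, whose protein takes part in assembly of the large subunit, had 827 with P25 against 469 with medium, or 1.76-fold (0.82). A second probe set gave 794 against 361 (1.14) and the dimmest 103 against 101 (0.03). Rpl7, its relative in the mature ribosome, had 8464 against 8497 (-0.01). Rpl22l1, the paralog that Rpl22 restrains, had 4487 against 3369, or 1.33-fold (0.41), which is under 1.5-fold.

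Rps4l had 73.4 against 45.9 (0.68) and Rpl39l, known from male germ cells, 22.1 against 14.1 (0.65). Both signals of Rpl39l fell under a floor at the 60th percentile, so that value rests on a dim probe set. The paralogs had mean signals from 17.7 to 3888, none in the range of the 34 genes above, and the part of this difference in signal in their ratios was not tested.

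The 8 other members had signals under 6000 too, and 5 of them passed 1.5-fold in favour of P25 (background 20.9%). Their median log2 ratio was 0.68. Rps6, whose phosphorylation by S6 kinase is a common readout of mTOR activity, had 905 with P25 and 532 with medium, or 1.70-fold (0.76). Rpl37 had 1994 against 1213 (0.72), and Rps25, which internal ribosome entry sites require, had 721 against 464 (0.64). Rpl14 had 291 against 135, or 2.15-fold (1.11).

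Rpl39, a small X-linked protein that lines the peptide tunnel, had 41.9 against 19.1, or 2.19-fold (1.13), and came to 0.12 with the floor at the 60th percentile. Rpl12 had 261 against 190 (0.46). Rpl27a (250 against 296, -0.24) and Rps27 (-0.22) were the lowest of all 47. Most of these 8 genes had a single probe set, and where it binds relative to the mature mRNA was not checked. With loess 3 of the 8 were at least 1.5-fold higher, beside 2836 of all 12897 measured genes. With one median 6 were, beside 3400 of 12884, and with one spike-in level 6, beside 3644 of 12907.

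**Figure D2:**
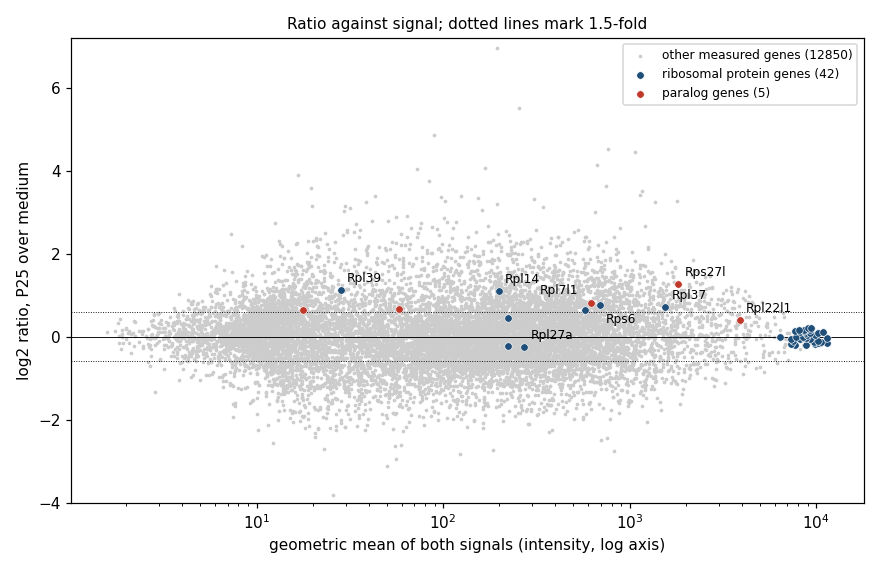
Log2 ratio of P25 over medium (vertical) against the geometric mean of both signals (horizontal, log axis) for 12850 other measured genes (grey), 42 ribosomal protein genes (blue) and 5 paralogs (red). The members at signals of 6000 or more lie within 0.21 of 0, and the members at lower signals lie mostly above it, with Rps27l highest at 1.28.

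Across the 47 members the ratio was lower where the signal was higher (Spearman's rho -0.44, Pearson's r -0.66). This is a description across genes, which share the 2 arrays and are no replicates, and the ratio and the mean come from the same pair of signals. Over 6870 other genes with mean signals of 100 or more, a cutoff the members did not have, rho was 0.08. Only 28 of these other genes reached 6000. The median log2 ratio of the other genes was 0.13 from 1000 to 3000, 0.21 from 3000 to 6000 and -0.08 at 6000 or more. Between signals of 1000 and 3000 the other genes had an SD of 0.77 and 28.8% of 792 were at least 1.5-fold higher. At 6000 or more the other genes had an SD of 0.31, against 0.13 for the 34 members there.

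The same split was seen within single genes. Of the 34 genes at the top of the scale, 18 had further probe sets whose signal passed the floor on each array, 45 in all. The 24 further probe sets of 6000 or more (13 genes) had 9 log2 ratios above 0 and 15 below, with a median of -0.07. The 21 under 6000 (12 genes) had 20 above 0 and 1 below, with a median of 0.48. Over all measured genes 51.4% were above 0. Of the 21, 20 exceeded the ratio of the brightest probe set of their own gene. Signals were under 1000 in 13 of the 21, with 12 above 0 and a median of 0.52. Some lay near the floor, as for Rpl35 at 19.2. The 8 from 1000 to 6000 were all above 0, with a median of 0.35. The probe sets measured the same RNA and are no replicates.

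Rpl13a gave the widest split among probe sets of more than 1000. Its brightest pair had log2 ratios of -0.15 and -0.17 (6297 with P25 against 7080 for the second), and its dimmer pair had 0.66 (3870 against 2445) and 0.50 (2099 against 1484). Rps9 had -0.18 on its brightest probe set (6921 against 7852), 0.48 on the second (6495 against 4654) and 0.53 on the dimmest (167 against 116).

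Rps20 had 0.08 and -0.10 at the top of the scale and 0.77 and 0.86 on a pair of dim probe sets (62.5 against 36.5 and 56.8 against 31.3). Rps10 had ratios from -0.13 to 0.32 on its 5 brightest probe sets and 1.35 on the last (48.9 against 19.2). Rpl35 had a ratio of 0.60 on a probe set that was bright itself (8018 against 5300), beside 0.21 on its brightest. The 1 probe set that went the other way was the dimmest of Rpl22 (405 against 567, -0.48), whose second one had 0.36 (5480 against 4269). Which of these values tracks the mRNA was not tested.

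**Figure D3:**
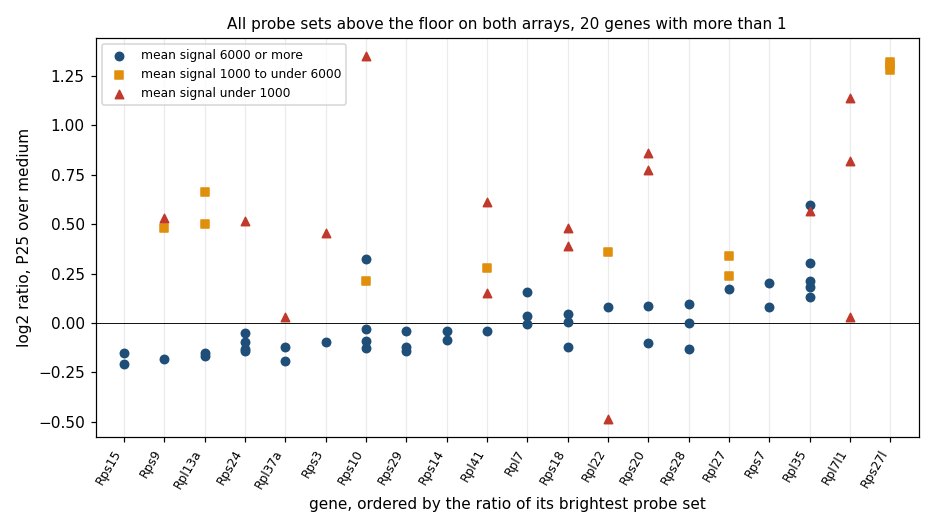
Log2 ratio of P25 over medium for every probe set past the floor on each array, in the 20 members with more than 1 such set, coloured by mean signal. In genes such as Rpl13a, Rps9 and Rps20 the probe sets of 6000 or more lie near 0 and the dimmer ones above, while the 3 probe sets of Rps27l lie together at 1.28 to 1.32.

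Another 110 probe sets carried several symbols, at least 1 of them a ribosomal protein gene that fits the rule, most often beside a pseudogene. They cannot be given to 1 gene and are described here as a group. Above the floor on both arrays were 105. The 69 of 6000 or more had a median log2 ratio of -0.02, with 32 above 0 and none past 1.5-fold in either direction. The 36 under 6000 had a median of 0.30, with 27 above 0, 11 at least 1.5-fold higher and 2 at least 1.5-fold lower (over all measured genes 20.9% and 18.3%). Probe sets left out by the rule thus showed a like division by signal.

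Genes of related function were compared through lists. Other mRNAs known to carry a TOP tract, which include elongation factors and Fau, had few large ratios too: of 18 measured 2 passed 1.5-fold upward and none downward (background 20.9% and 18.3%), with a median log2 ratio of 0.07. Eef1a1, which brings aminoacyl-tRNA to the ribosome, had 9451 against 9708 (-0.04), and Eef2, which moves the ribosome along the mRNA, had 5649 against 5585 (0.02). The highest were Eif3l (0.69) and the nucleolar chaperone gene Npm1 (0.61), and the lowest Vim (-0.34) and Tpt1 (-0.14). Their mean signals ran from 1510 to 9579, 6 of the 18 at 6000 or more. The 12 under 6000 held both the highest and the lowest of these values.

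Mitochondrial ribosomal proteins build the separate ribosome of that organelle, and their mRNAs lack a TOP tract as a rule. The log2 ratio was above 0 in 75 of 76 measured, 61 passed 1.5-fold and 17 passed 2-fold (background 20.9% and 9.43%). The median was 0.82. Mrps27 (195 against 45.3, 4.31-fold) and Mrps6 (506 against 127, 3.97-fold) were highest, and Mrps16 (0.00) and Mrpl24 (0.07) lowest. Their mean signals, 94.0 to 1262, did not reach the range of the 34 cytosolic members at the top of the scale.

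Factors that assemble ribosomes stood higher still. Of 68 measured 60 were at least 1.5-fold and 47 at least 2-fold higher with P25 (background 20.9% and 9.43%). None was 1.5-fold lower (background 18.3%), and the median was 1.43. Rrp12, needed for export of both subunits, had 254 against 49.0 (5.19-fold), and Nolc1, a chaperone of small nucleolar particles, 1290 against 288 (4.49-fold). Taf1b (-0.21) and Sbds (-0.05) were the lowest. The translation factors were intermediate, with 20 of 41 at least 1.5-fold higher, 14 of them past 2-fold (background 20.9% and 9.43%), and a median of 0.57. Of the 41, 10 are also among the TOP mRNA genes above, and these 10 had a median of 0.04 with 1 past 1.5-fold. Eif1a had 977 against 237 (4.12-fold) and Eef1e1 1302 against 375 (3.47-fold), while Eif4g3 (-0.17) and Eif3h (-0.11) were lowest.

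**Figure D4:**
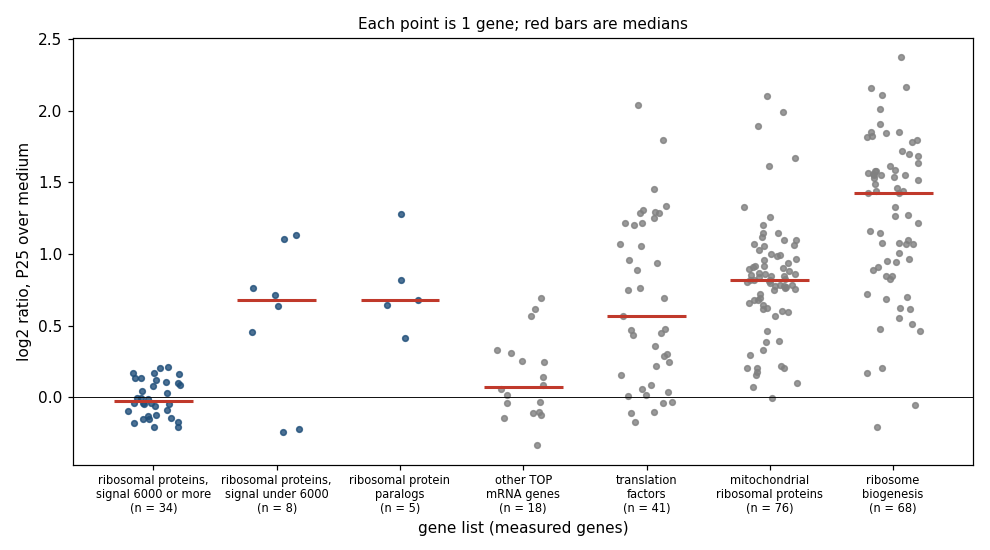
Log2 ratio of P25 over medium for each measured gene of 7 groups, with red bars at the medians. The 34 ribosomal protein genes of high signal (median -0.02) and the other TOP mRNA genes (0.07) lie near 0, and the mitochondrial ribosomal proteins (0.82) and ribosome biogenesis genes (1.43) lie above.

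Genes that regulate ribosomal protein synthesis went both ways, with 3 of 22 (13.6%) at least 2-fold higher, near the background of 9.43%, none 1.5-fold lower (background 18.3%) and a median of -0.01. Myc, which drives transcription of ribosome genes, had 820 with P25 against 172 with medium (4.78-fold). Larp1, the repressor of TOP mRNA translation, had 985 against 450 (2.19-fold), and Znhit3, an assembly factor of small nucleolar particles, 253 against 112 (2.27-fold). The mTOR target Eif4ebp1 had 532 against 324 (0.71). Mtor itself (304 against 318, -0.06) and Rptor (134 against 123, 0.13) were near 0, and Mdm2 (232 against 330) was lowest at -0.51.

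The cells of both arrays carried B cell markers most clearly, with all 7 on the array measured. Their summed signal was 19857 with P25 and 26220 with medium, and 6 of the 7 had a log2 ratio below 0. Macrophage and monocyte markers summed to 511 against 1251 (7 of 9 measured, C1qa and C1qc below the floor on both arrays) and neutrophil markers to 5765 against 10171 (6 of 6 measured, all below 0), with 6 of the 7 macrophage markers below 0 as well. Dendritic cell markers summed to 184 against 176 (5 of 6 measured, Xcr1 below the floor), which rests on Zbtb46 (log2 ratio 2.52), while the other 4 were below 0 and the median log2 ratio was -0.70. Of 7 T cell markers on the array 4 were measured, with sums of 107 and 129, and the defining Cd3d, Cd3e and Cd4 were below the floor on both arrays. Cd3g (21.6 against 11.1) and Cd8a (37.2 against 28.9) were above it on both and higher with P25, and Cd5 and Cd28 were lower. The erythroid markers Hba-a1 and Alas2 were below the floor. The 3′ to 5′ signal ratio, a sign of RNA quality, was 0.733 with P25 and 0.791 with medium for Gapdh, and 1.23 and 1.26 for Actb. The part of these differences in cell types in the ratios above was not tested.

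The level of the 34 genes at the top of the scale depended on how the arrays were scaled. Their median of -0.02 became 0.12 when the medians of measured probe sets were made equal, 0.16 with one level of the 18 spike-in controls, and -0.19 with loess, and the number above 0 went from 14 to 28, 32 and 4. Over all measured genes the median log2 ratio was 0.02 as deposited and 0.15, 0.19 and 0.05 under these scalings. None of the 34 passed 1.5-fold in either direction under any of the 3. The first 2 scalings shift all these ratios by one amount, too small to bring any past 1.5-fold, so there the outcome was fixed. Dimmer probe sets of some of these genes gave larger ratios, as shown above. A direction for the group as a whole is therefore not given.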

How the data were processed

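Each condition was measured on 1 Affymetrix array from biotin-labelled cRNA of 1 µg RNA, per the labels' protocols. The authors deposited intensities, which MAS5 in GCOS gave, per the submitters' processing notes. For versions, scaling target and masks nothing is stated in the sources used here. The values are linear and never negative. Each array gave 45101 probe sets, 64 of them controls. Platform annotation named 34945 probe sets by 1 symbol, 932 by several and 9160 by none, and only the first kind was used for genes. Symbols were updated by Entrez number through the RefSeq table.

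For each gene the probe set with the highest mean of log2 signals over both arrays was used. Signals under the floor (40th percentile, 10.3) were set to it. Since there was 1 array per condition, no test was run, the number of arrays limits the precision, and genes were counted at 1.5-fold and 2-fold. A batch and the treatment cannot be told apart. The ratio computation was tested on simulated data. Alternatives were another floor, no floor, 3 scalings, other probe sets, and leaving out paralogs. The use of probe sets under 6000 was chosen after seeing the data.

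The members, the lists and the rule for named genes were chosen with earlier results of these data known. That rule names the 10 highest and 10 lowest ratios, every member past 1.5-fold, each paralog pair, preset role groups, and the 2 highest and lowest of each list. Other genes were named after their values were seen. Protein sequences were not used here, so paralog identity was not computed. Python 3.11.15, pandas 2.3.3, numpy 2.4.6 and statsmodels 0.14.6 were used.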

Additional observations from a re-analysis of the deposited data

How the results depend on the processing

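No paired analysis was possible because each condition has 1 array, and no replicate could be left out. No ribosomal protein gene reached 1.5-fold lower under any alternative run, though median and spike-in scaling could only raise these ratios. The counts at least 2-fold higher were between 2 and 4 under each run. The probe sets under 6000 were added after seeing the data. A median counted as moved when it shifted by more than 0.1. For the ribosomal protein genes the median log2 ratio of 0.04 became 0.19 with median scaling, 0.23 with spike-in scaling, -0.13 with loess and 0.52 over the 25 genes with a probe set under 6000. The number above 0, 25 of 47, became 39, 43 and 15 with the 3 scalings and 11 of 20 on second probe sets. On probe sets under 6000 it was 23 of 25. The 9 genes at least 1.5-fold higher became 2 of 20 on second probe sets and 5 without paralogs. On probe sets under 6000 they were 11 of 25. For mitochondrial ribosomal proteins the median of 0.82 became 0.97, 1.01 and 0.63 with median scaling, spike-in scaling and second probe sets. Their 17 genes at least 2-fold higher became 32, 41 and 9, and their 61 at least 1.5-fold higher 20 on second probe sets. For ribosome biogenesis the median of 1.43 became 1.57 (median scaling), 1.62 (spike-in), 1.32 (loess), 1.18 (median over probe sets) and 0.99 (second probe sets), where the counts at 2-fold and 1.5-fold were 22 and 35. For translation factors the median of 0.57 became 0.71 (median scaling), 0.76 (spike-in), 0.39 (loess), 0.69 (without _x_at and _s_at probe sets), 0.69 (second probe sets) and 0.72 (under 6000), and 8 second probe sets were at least 2-fold higher. For other TOP mRNA genes the median of 0.07 became 0.22, 0.26, -0.10 and 0.39 with median scaling, spike-in scaling, loess and second probe sets. Their 0 genes at least 2-fold higher became 2 on second probe sets and 1 under 6000, and their 2 at least 1.5-fold higher became 0 with loess and 4 on second probe sets. Second probe sets exist for fewer genes. Other causes were not tested. Signals near the floor limit Rpl39 and Rpl39l, and signals near the top of the scale limit the 34 brightest genes.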
